A study of Mus musculus with 6 samples.

Results

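The genes that copy DNA and supply its building blocks were examined in megakaryocyte progenitors of the GATA1s genotype, set between fetal liver and adult bone marrow. The list of 42 names was taken as given, and 41 of them were measured by probe sets that carry exactly 1 gene symbol in the array annotation, out of 18193 such genes on the array. The remaining name, Chaf1a, was not analysed here. Expression was read as MAS5 signal, a linear brightness scaled to the same trimmed mean on every array. For each gene the probe set with the highest mean log2 signal over the 6 arrays was used, and 92 probe sets covered the 41 genes in all. The fetal liver group held 3 arrays of C57BL/6 fetuses at E13.5, and the bone marrow group held 3 arrays of C57BL/6 adults aged 12 to 18 weeks. Both groups carried GATA1s, a variant of the blood transcription factor GATA1 that lacks its amino terminus. Cells with normal GATA1 were not analysed here, and no value below bears on the genotype. In both tissues the cells had been sorted as lineage-negative and Sca-1-negative with c-kit, CD150 and CD41 on the surface. The labels call the samples biological replicates without saying how many animals each pooled, so the p-values reflect the spread among these arrays, which may be technical.

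A cell copies its genome once per division. In G1 phase the origin recognition complex, Cdc6 and Cdt1 load the ring-shaped MCM2-7 helicase on DNA in an inactive form, a step called licensing, which geminin blocks later in the cycle. At the start of S phase the kinase of Cdc7 and Dbf4, together with cyclin-dependent kinases, lets Cdc45 and the GINS complex join the ring and, with Mcm10, turn it into a working helicase. Clamp, clamp loader, polymerases and a supply of deoxynucleotides then carry the fork. Many of these genes are targets of E2F transcription factors, and megakaryocyte progenitors pass from such ordinary cycles to repeated rounds of replication without cell division as they mature.

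Of the 41 genes, 20 were higher in fetal liver and 0 were lower by limma, the linear model for array data, at an adjusted p under 0.05 over all 11645 genes tested. All 41 had passed the filter on low signal. At an unadjusted limma p under 0.05 the counts were 22 higher and 0 lower, against 2771 higher and 2580 lower of all 11645 genes tested. At the adjusted threshold 36.1% of all genes tested were called in either direction, 17.8% higher and 18.3% lower. The differences were modest: the log2 fold change, taken as the fetal liver value minus that of bone marrow in every case, had a median of 0.25 over the 41 genes and 0.04 over all genes tested, and the called genes ran from 1.17-fold to 2.05-fold. With arrays centred on their medians instead, the median over all genes was 0.20, 29 of the 41 genes were called higher, and higher ones made up 68.4% of all calls, against 49.3% without centring. All 3 fetal liver arrays lay above all 3 bone marrow arrays for 22 of the 41 genes, against 26.7% of all genes tested. The steps of replication were unequal in their counts, with 6 of 7 origin firing genes and 5 of 6 nucleotide supply genes called but 0 of the 6 MCM2-7 subunits. Their median log2 fold changes were 0.66, 0.24 and 0.04 in that order. Polymerase and primase genes, with 3 of 7 called, had a median of 0.33, so counts and sizes did not rank the steps alike. The difference between steps was not tested. RNA was measured in bulk, so fewer cells of a type and less RNA per cell cannot be told apart.

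**Figure D1:**
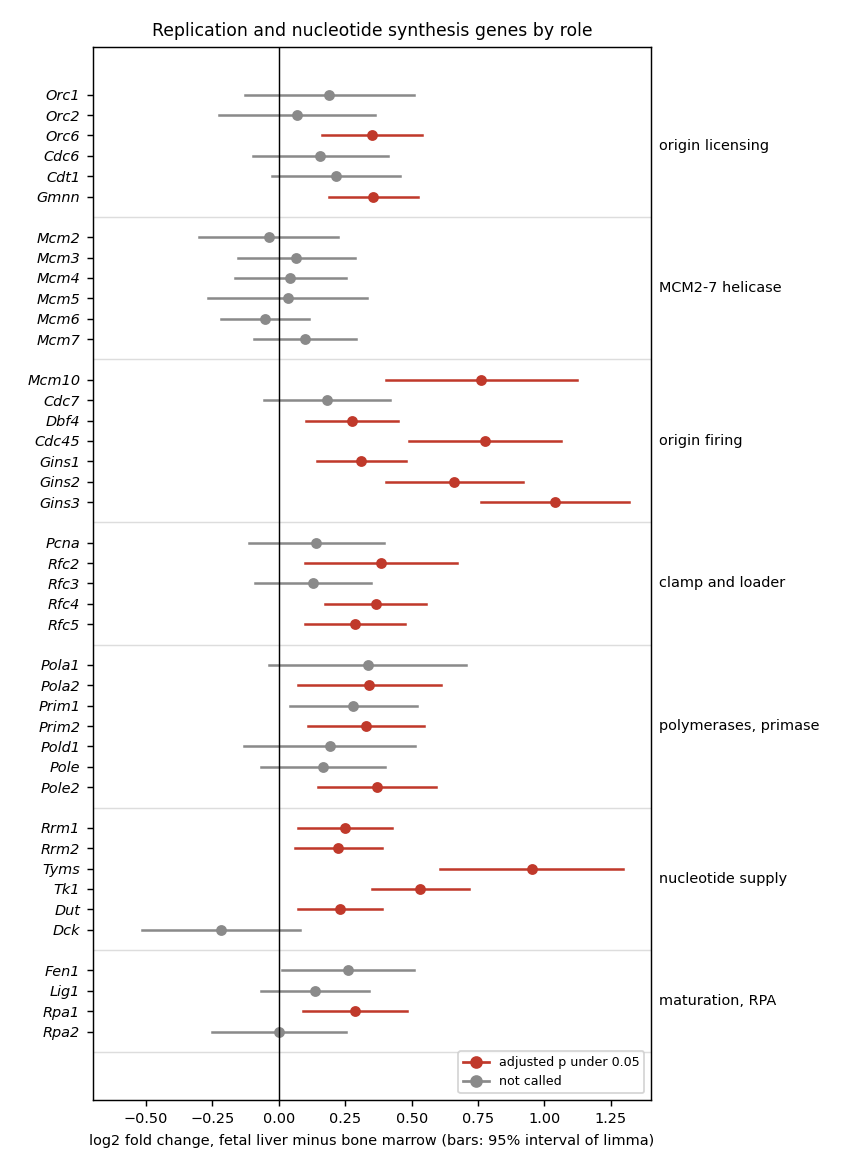
Log2 fold change (x axis, fetal liver minus bone marrow) of each of the 41 genes, grouped by step of replication down the page, with bars for the 95% interval of the limma fit over 3 arrays per tissue. The 20 genes called higher are drawn in red and the others in grey. The MCM2-7 genes lie close to 0, and Gins3 lies farthest to the right at 1.04.

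Beside these genes, transcripts of other blood cells differed widely between the tissues; sums are over all genes of a list on the array. All 16 granulocyte and monocyte markers tested were lower in fetal liver, with a summed signal of 7386 to 9321 on fetal liver arrays and 62057 to 81867 on bone marrow arrays. S100a9, the brightest of them, averaged 448 in fetal liver and 12555 in bone marrow. All 5 macrophage markers tested (sums of 290 to 316 in fetal liver and 1805 to 2171 in bone marrow; brightest Cd68) and all 5 mast cell and basophil markers tested (263 to 372 in fetal liver and 4034 to 5232 in bone marrow; brightest Fcer1a) were lower as well. Of 7 lymphoid markers tested 5 were lower (1447 to 1588 in fetal liver and 3248 to 4874 in bone marrow; brightest Cd79b, not called), and of 8 erythroid markers 4 were lower and 1 higher (6320 to 7228 in fetal liver and 8204 to 15222 in bone marrow; brightest Tfrc). Of 4 hepatoblast markers tested 2 were higher and 1 lower. Their list summed to 1060 to 1538 in fetal liver and 310 to 396 in bone marrow. Its brightest gene, Dlk1, averaged 1097 in fetal liver and 13.8 in bone marrow. Dlk1 thus made up most of the fetal liver sum and little of the bone marrow sum. Of 6 endothelial markers tested 3 were higher, with sums of 5012 to 6907 in fetal liver and 3905 to 4599 in bone marrow (brightest Tie1). The megakaryocyte list summed to 20322 to 36523 in fetal liver and 26352 to 31270 in bone marrow, with 2 of 11 genes higher and 1 lower, and its brightest gene, Pf4, averaged 7681 in fetal liver and 8427 in bone marrow. No marker was listed at 0. Signals were under the filter level of 22.9 on all 3 fetal liver arrays for 6 of 9 macrophage markers on the array. The same held for 6 of 9 mast cell and basophil, 7 of 11 lymphoid and 2 of 16 granulocyte and monocyte markers. The filter used the mean over all 6 arrays, so some tested markers of these lists passed only through bone marrow. For those a lower call follows in part from the filter. Dlk1 in turn averaged under that level in bone marrow. The part of other cells in the replication gene differences was not tested. Median signal per array was 52.0 to 59.1 in fetal liver and 65.9 to 74.6 in bone marrow, and the ratio of the 3′ to the 5′ control probe set of Actb was 1.31 to 1.33 in fetal liver and 1.30 to 1.42 in bone marrow. For Gapdh that ratio was 1.32, 1.38 and 1.32 in fetal liver and 1.39, 1.58 and 1.39 in bone marrow, so it was higher on every bone marrow array than on any fetal liver array. The part of RNA quality in the differences was not tested.

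Promoters are shown because many genes of this family are known E2F targets and moved to unequal degrees. Promoter windows from RefSeq (GRCm38.p6, 250 bases before and 50 bases after an annotated start) were at hand for 34 of the 41 genes. They were searched on both strands for 4 E2F words, TTTCCCGC, TTTCGCGC, TTTGCCGC and TTTGGCGC, and for CCAAT. Overlapping matches were each counted, and no E2F word contains CCAAT. An E2F word stood in 13 of the 34 genes (38.2%), against 2.6% of 27025 genes with a window, and CCAAT in 19 (55.9%) against 41.1%. Both called genes that hold a word, Gins3 and Pole2, are printed, with Mcm6 and Mcm5 beside them, which were added after their values were seen as examples of genes with words and log2 fold changes near 0 (-0.05 and 0.03). The sequences run 5′ to 3′ on the strand of the gene, with E2F words in capitals. They are chr8:95633309-95633608 on the plus strand for Gins3, chr12:69228141-69228440 on the minus strand for Pole2, chr1:128359656-128359955 on the minus strand for Mcm6 and chr8:75109259-75109558 on the plus strand for Mcm5.
Gins3: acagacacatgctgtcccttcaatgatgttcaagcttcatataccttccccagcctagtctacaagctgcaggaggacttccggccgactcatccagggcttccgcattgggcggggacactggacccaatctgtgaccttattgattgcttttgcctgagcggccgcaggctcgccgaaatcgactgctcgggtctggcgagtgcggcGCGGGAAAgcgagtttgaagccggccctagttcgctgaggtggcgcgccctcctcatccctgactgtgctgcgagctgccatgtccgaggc
Pole2: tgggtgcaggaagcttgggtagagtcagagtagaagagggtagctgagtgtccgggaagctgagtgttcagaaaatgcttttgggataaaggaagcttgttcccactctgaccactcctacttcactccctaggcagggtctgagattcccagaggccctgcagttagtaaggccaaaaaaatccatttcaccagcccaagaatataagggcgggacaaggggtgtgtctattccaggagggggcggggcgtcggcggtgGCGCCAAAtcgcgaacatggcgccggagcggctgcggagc
Mcm6: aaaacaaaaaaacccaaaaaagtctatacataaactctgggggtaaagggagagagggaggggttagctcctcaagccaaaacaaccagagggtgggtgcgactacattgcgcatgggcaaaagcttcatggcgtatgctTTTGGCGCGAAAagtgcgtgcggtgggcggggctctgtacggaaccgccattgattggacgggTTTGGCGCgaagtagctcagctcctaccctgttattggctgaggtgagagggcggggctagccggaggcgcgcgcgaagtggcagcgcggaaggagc
Mcm5: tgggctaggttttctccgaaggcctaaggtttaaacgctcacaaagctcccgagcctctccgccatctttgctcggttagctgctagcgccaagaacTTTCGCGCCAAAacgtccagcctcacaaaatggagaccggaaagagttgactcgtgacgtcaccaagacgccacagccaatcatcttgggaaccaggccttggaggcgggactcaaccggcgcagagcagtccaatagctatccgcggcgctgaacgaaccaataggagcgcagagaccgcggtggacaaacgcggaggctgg

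In Gins3 the word began 41 bases before the annotated start, and in Pole2 10 bases after it. Mcm6 held 3 matches, of which the 2 farthest from the start overlap, and Mcm5 held 2 overlapping ones. Among the genes called higher 2 of 15 with a window held a word, and among those not called 11 of 19 did. This contrast was not tested. The 7 genes without a window were mostly called ones: Gmnn, Gins1, Gins2, Rfc2 and Prim2 were called higher, Mcm4 and Pole were not called. By step, the words stood in 4 of 5 MCM2-7 genes, 3 of 5 licensing genes, 3 of 5 polymerase and primase genes, 1 of 5 origin firing genes and 0 of 6 nucleotide supply genes. These matches describe the letters of the windows, and a window without one says only that these words are not in it.

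**Figure D2:**
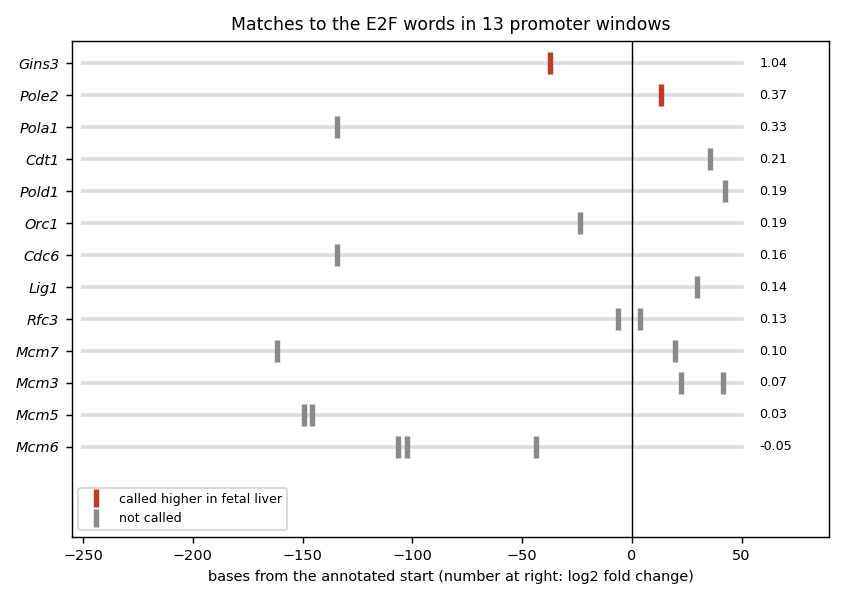
Position of each E2F word (x axis, bases from the annotated start) in the 13 genes whose promoter window holds one, ordered from the highest log2 fold change (top, printed at the right) to the lowest. Red marks are genes called higher in fetal liver and grey marks genes not called. Only Gins3 and Pole2 are red among these 13, and the MCM2-7 genes fill the lowest 4 places.

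Of the 6 licensing genes 2 were called higher in fetal liver and 4 did not pass the test, against 17.8% of all genes tested called higher. With 6 genes that count says little about the step. Geminin, encoded by Gmnn, holds Cdt1 inactive so that no origin is licensed again within a cycle. Gmnn had signals of 4487, 4616 and 4500 on the fetal liver arrays and 3320, 3671 and 3645 on the bone marrow arrays. The groups did not overlap, and the log2 fold change was 0.36 ± 0.07 (SE, adjusted p = 0.00534). Orc6, a subunit of the origin recognition complex, had signals of 3257, 3746 and 3697 in fetal liver and 2752, 2860 and 2762 in bone marrow. Its log2 fold change was 0.35 ± 0.08 (adjusted p = 0.0103), and every fetal liver array again exceeded every bone marrow array. Both calls held in all 6 fits that left out 1 array. The other complex subunits Orc1 (0.19) and Orc2 (0.07) and the loading factors Cdc6 (0.16) and Cdt1 (0.21) had positive log2 fold changes with adjusted p of 0.145 to 0.718. Orc2 changed sign without fetal liver replicate 2 (-0.04).

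None of the MCM2-7 genes passed the limma test, and none had an unadjusted p under 0.05. Over all genes tested 17.8% were called higher and 18.3% lower. These 6 subunits form the ring that is loaded in G1 and unwinds DNA in S phase. Mcm7, whose probe set had the highest mean of the 6, had signals of 5312, 5588 and 5073 in fetal liver and 4463, 5316 and 5171 in bone marrow. The groups overlapped, and its log2 fold change was 0.10 ± 0.09 (adjusted p = 0.403). Log2 fold changes of the others were -0.04 for Mcm2, 0.07 for Mcm3, 0.04 for Mcm4, 0.03 for Mcm5 and -0.05 for Mcm6. Their 95% intervals all included 0. The lowest bound was -0.30, for Mcm2, and the highest was 0.33, for Mcm5. Differences within the interval of each gene are thus not excluded for that gene. The signs are not settled: quantile normalization gave negative values for Mcm3 (-0.02), Mcm4 (-0.04) and Mcm5 (-0.02), and median centring gave positive ones for Mcm2 (0.12) and Mcm6 (0.11). In bone marrow, Mcm2, Mcm3, Mcm6 and Mcm7 all had their highest signal on replicate 2 and their lowest on replicate 1.

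The probe sets chosen for all 6 of these genes bear an _s_at or _x_at suffix, which marks probes that can match more than 1 transcript. Among the 41 genes 9 chosen probe sets had such a suffix and 1 of them was called, while 19 of the 32 with another suffix were called. The 18 kept probe sets of MCM2-7 ran from -0.05 to 0.32, and 1 was called. That was the second probe set of Mcm5 without the suffix, at 0.32 (adjusted p = 0.0377 in a fit of every probe set). When probe sets with these suffixes were left out, a choice made after seeing the data, Mcm5 was called (adjusted p = 0.0296) and the other 5 were not, with 0.26 for Mcm2 and 0.04 for Mcm6. How far cross-matching probes set the values was not tested.

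Origin firing genes showed the most calls, 6 of 7 against 17.8% of all genes tested called higher, with a median log2 fold change of 0.66. Gins3, a subunit of the GINS complex that joins the helicase, had signals of 1197, 1497 and 1544 in fetal liver and 707.5, 680 and 662.9 in bone marrow. Every fetal liver array was well above the bone marrow arrays, for a log2 fold change of 1.04 ± 0.12 (adjusted p = 2.30e-04), or 2.05-fold. Its partner Gins2 had signals of 2024, 2224 and 1807 in fetal liver and 1137, 1321 and 1369 in bone marrow (log2 fold change 0.66 ± 0.11, adjusted p = 0.00203). Gins1 differed less, with 3222, 3454 and 3374 in fetal liver and 2723, 2664 and 2711 in bone marrow (0.31 ± 0.07, adjusted p = 0.0106). The 3 GINS genes thus shared their direction with different sizes, and none had overlapping groups.

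Cdc45, which binds GINS and the MCM ring to complete the helicase, had signals of 1354, 1324 and 1517 in fetal liver and 933.7, 707.6 and 818.8 in bone marrow. The groups were separate, and its log2 fold change was 0.78 ± 0.13 (adjusted p = 0.00146). Mcm10, which helps to activate the assembled helicase and is not part of the ring despite its name, had signals of 1624, 1707 and 1487 in fetal liver and 739.2, 1160 and 983.9 in bone marrow. Bone marrow replicate 1 was the lowest array, and the log2 fold change was 0.76 ± 0.16 (adjusted p = 0.00543); without that array it was 0.59, still called, but with ordinary t statistics the call was lost (adjusted p = 0.0641). Dbf4, the regulatory subunit of the Cdc7 kinase, had signals of 3068, 3025 and 3117 in fetal liver and 2463, 2488 and 2666 in bone marrow (0.27 ± 0.08, adjusted p = 0.0216). Dbf4 lost its call without fetal liver replicate 3 (adjusted p = 0.0754), bone marrow replicate 1 (0.0709), 2 (0.0707) or 3 (0.0509), whereas the other 5 calls of this group held in all 6 such fits. The kinase itself, Cdc7, had a log2 fold change of 0.18 ± 0.11 and was not called (adjusted p = 0.208). When the probe sets of each gene were averaged, the calls of Cdc45 (adjusted p = 0.0568) and Gins1 (0.111) were lost.

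**Figure D3:**
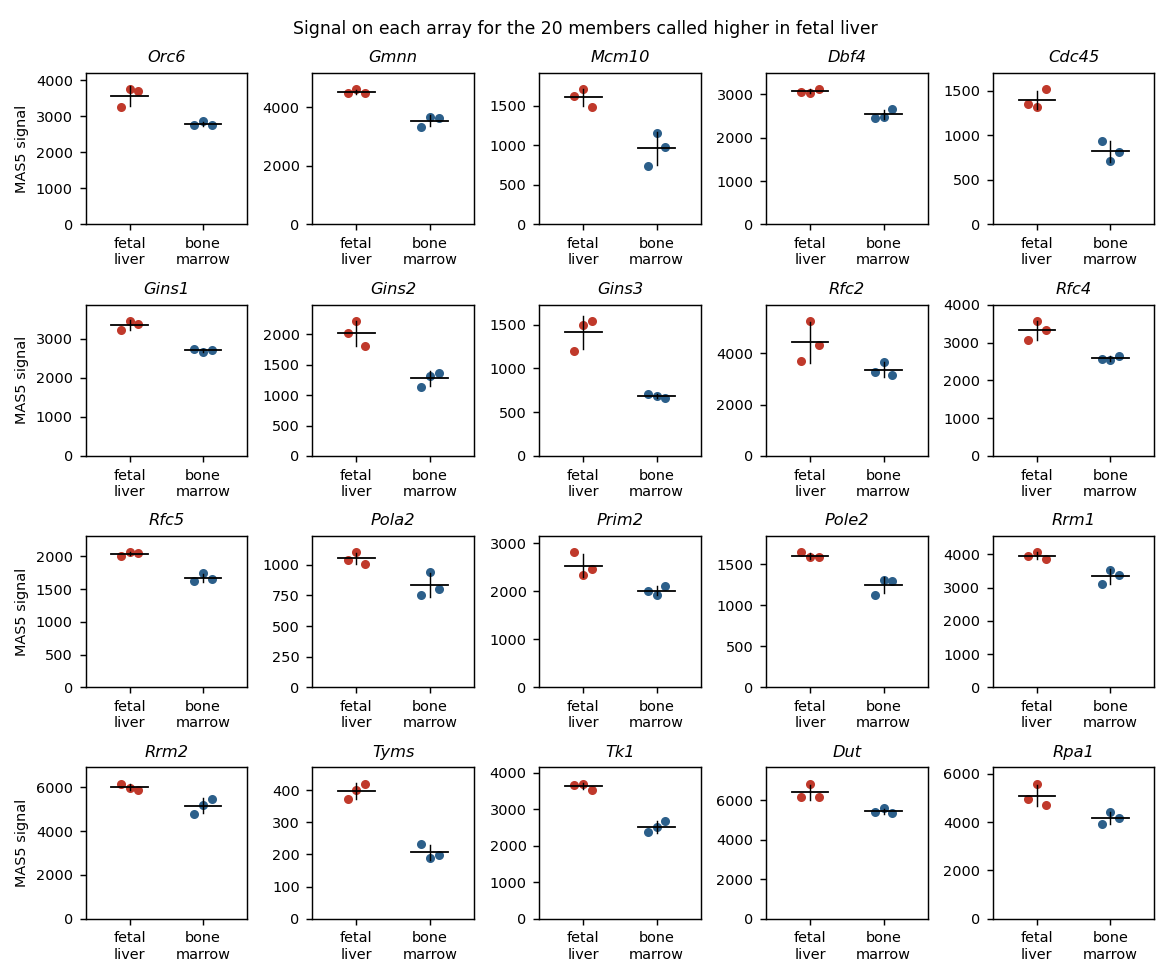
MAS5 signal on each array (y axis, linear from 0) for the 20 genes called higher, fetal liver in red and bone marrow in blue, with the mean as a horizontal line and the SD as a vertical line (n = 3 each). Gins3 and Tyms show the largest folds, and Dut, Rrm1 and Rrm2 differ by under 1.2-fold.

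Among the clamp and its loader 3 of 5 genes were called higher, against 17.8% of all genes tested. Pcna, the sliding clamp that tethers polymerases to DNA, had signals of 6331, 8708 and 6732 in fetal liver and 6564, 6818 and 6180 in bone marrow. Fetal liver replicate 2 stood above the rest and the other arrays overlapped (log2 fold change 0.14 ± 0.11, adjusted p = 0.363). The loader subunit Rfc4 had signals of 3074, 3573 and 3338 in fetal liver and 2550, 2538 and 2654 in bone marrow (0.36 ± 0.08, adjusted p = 0.00902), and its call held in all 6 fits that left out 1 array. Rfc5 was nearly constant within each tissue, with 2013, 2065 and 2055 in fetal liver and 1633, 1747 and 1653 in bone marrow (0.29 ± 0.08, adjusted p = 0.0257). Rfc2 spread more, with 3701, 5261 and 4308 in fetal liver and 3258, 3676 and 3147 in bone marrow (0.38 ± 0.13, adjusted p = 0.0404). The groups of both genes were separate, by a narrow margin for Rfc2. Rfc5 lost its call without fetal liver replicate 3 (adjusted p = 0.0806), bone marrow replicate 1 (0.0751) or bone marrow replicate 3 (0.104). Rfc2 lost its call without fetal liver replicate 2 (0.0899) or 3 (0.0856), without bone marrow replicate 1 (0.0999) or 3 (0.132), and under quantile normalization (0.0579). Rfc3, another loader subunit, had 0.13 (adjusted p = 0.332).

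Of the 7 polymerase and primase genes 3 were called higher, against 17.8% of all genes tested. All 7 had positive log2 fold changes of 0.17 to 0.37. Pole2, the second subunit of polymerase epsilon, which copies the leading strand, had signals of 1643, 1581 and 1583 in fetal liver and 1126, 1306 and 1293 in bone marrow. Its groups did not overlap (0.37 ± 0.10, adjusted p = 0.0173), and the call was lost without fetal liver replicate 3 (0.0517) or bone marrow replicate 1 (0.0577). Averaging the probe sets of Pole2 gave 0.27 and no call (adjusted p = 0.200). Prim2, the large subunit of primase, which makes the RNA primers, had signals of 2809, 2338 and 2451 in fetal liver and 2013, 1909 and 2116 in bone marrow (0.33 ± 0.10, adjusted p = 0.0270). Its call was lost in 5 of the 6 fits that left out 1 array, the exception being the fit without fetal liver replicate 2, and adjusted p reached 0.0917 without bone marrow replicate 2. Pola2, an accessory subunit of the primase-bound polymerase alpha, had signals of 1042, 1103 and 1010 in fetal liver and 750.9, 944.5 and 805.1 in bone marrow. Its log2 fold change of 0.34 ± 0.12 lay at the threshold itself (adjusted p = 0.04999), and the call was lost in every such fit except that without bone marrow replicate 2, up to an adjusted p of 0.154. Prim1, the catalytic primase subunit, had 4349, 5649 and 4464 in fetal liver and 3808, 4153 and 3873 in bone marrow, with separate groups but no call (0.28 ± 0.11, adjusted p = 0.0661; 0.0314 without fetal liver replicate 1). The catalytic subunits Pola1 (0.33), Pold1 (0.19) and Pole (0.17) were not called. Pola1 was called without bone marrow replicate 1 (0.50, adjusted p = 0.0291).

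Nucleotide supply gave 5 calls among 6 genes, against 17.8% of all genes tested called higher. Its median log2 fold change was 0.24, close to the 0.25 of all 41 genes. Tyms, thymidylate synthase, which makes dTMP, had signals of 371.4, 401.8 and 420.3 in fetal liver and 231.4, 189.4 and 197.8 in bone marrow. The groups lay far apart at low signal (log2 fold change 0.95 ± 0.15, adjusted p = 0.00135). Tk1, the thymidine kinase of the salvage route, had 3673, 3701 and 3537 in fetal liver and 2363, 2502 and 2690 in bone marrow (0.53 ± 0.08, adjusted p = 9.66e-04). Both thymidylate genes kept their calls under every alternative run. The second probe set of Tyms, dimmer still with means of 119 in fetal liver and 79.4 in bone marrow, was at 0.58. It was not called in a limma fit of every probe set (adjusted p = 0.085).

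Ribonucleotide reductase makes deoxynucleotides from ribonucleotides, with Rrm1 as its large and Rrm2 as its small subunit. Rrm1 had signals of 3949, 4064 and 3851 in fetal liver and 3099, 3524 and 3381 in bone marrow (0.25 ± 0.08, adjusted p = 0.0354). Rrm2 had 6173, 5989 and 5888 in fetal liver and 4801, 5200 and 5470 in bone marrow (0.22 ± 0.07, adjusted p = 0.0384). Dut, which hydrolyses dUTP and so keeps uracil out of DNA, had 6170, 6828 and 6159 in fetal liver and 5377, 5580 and 5353 in bone marrow (0.23 ± 0.07, adjusted p = 0.0299). On the chosen probe sets these 3 genes had separate groups but small differences. All 3 lost their calls under quantile normalization (adjusted p = 0.0819, 0.147 and 0.0524 in that order) and in 4 or 5 of the 6 fits that left out 1 array. Among those fits the highest adjusted p was 0.127 for Rrm1 and 0.142 for Rrm2, both without bone marrow replicate 1, and 0.117 for Dut without bone marrow replicate 3. Rrm1 kept its call only without bone marrow replicate 2, Rrm2 only without fetal liver replicate 2, and Dut without fetal liver replicate 1 or 2. Dck, deoxycytidine kinase, was the single gene of the group with a negative value (-0.22 ± 0.13, adjusted p = 0.228). Its fetal liver signals were 2766, 1942 and 2239, against 2460, 2652 and 2899 in bone marrow, and without fetal liver replicate 1 it was called lower (-0.35, adjusted p = 0.0302).

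Of the 4 genes of strand maturation and single-strand binding 1 was called higher, against 17.8% of all genes tested. With 4 genes that count says little about the step. Rpa1, the large subunit of the protein that coats single-stranded DNA, had signals of 4970, 5589 and 4716 in fetal liver and 3905, 4429 and 4174 in bone marrow. The groups were separate (0.29 ± 0.09, adjusted p = 0.0305), and the call was lost without fetal liver replicate 2 (0.0605), bone marrow replicate 1 (0.104) or bone marrow replicate 3 (0.0919). Its partner Rpa2 was at 0.0007 ± 0.11 (adjusted p = 0.997), with an interval of -0.25 to 0.25. A second probe set of Rpa2, with means of 1639 in fetal liver and 1325 in bone marrow, was at 0.31. It was not called in a limma fit of every probe set (adjusted p = 0.0624), and averaging the probe sets gave 0.15 (adjusted p = 0.204). Fen1, the nuclease that removes flaps between Okazaki fragments, had 5524, 7148 and 5643 in fetal liver and 4709, 5540 and 4966 in bone marrow (0.26 ± 0.11, adjusted p = 0.0933). The groups overlapped by 1 array each, and without fetal liver replicate 1 Fen1 was called (0.0491). Lig1, the ligase that seals the fragments, had 0.14 ± 0.09 (adjusted p = 0.268).

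Probe sets of the same gene differed in the size of the change. After the filter 86 probe sets of the 41 genes were left, of which 31 were called higher and 0 lower in a fit of every probe set. The share called over all kept probe sets in that fit was not computed, so these counts have no background beside them. For 32 genes with more than 1 such probe set, the median log2 fold change of the others lay above that of the chosen one in 18. The sign was kept, so these include Dck (-0.15 against -0.22) and Mcm6 (0.04 against -0.05), where the change was not larger in size. The chosen probe set of Rrm2 was at 0.22 and its other probe sets at 0.78 and 0.62, both called (adjusted p = 0.00414 and 0.0280). Fen1 was at 0.48 on its second probe set (adjusted p = 0.00610). Mcm10 was called on all 3 of its probe sets, at 0.76, 0.71 and 1.37. Cdc45 went the other way, with 0.20 on a dim second probe set (mean signal 77.6 in fetal liver and 67.6 in bone marrow, adjusted p = 0.637). Over the 41 chosen probe sets the log2 fold change and the mean log2 signal had a correlation of -0.51, against 0.21 over all 11645 genes tested; these genes share their arrays and are not independent, and signal also depends on the probes.

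**Figure D4:**
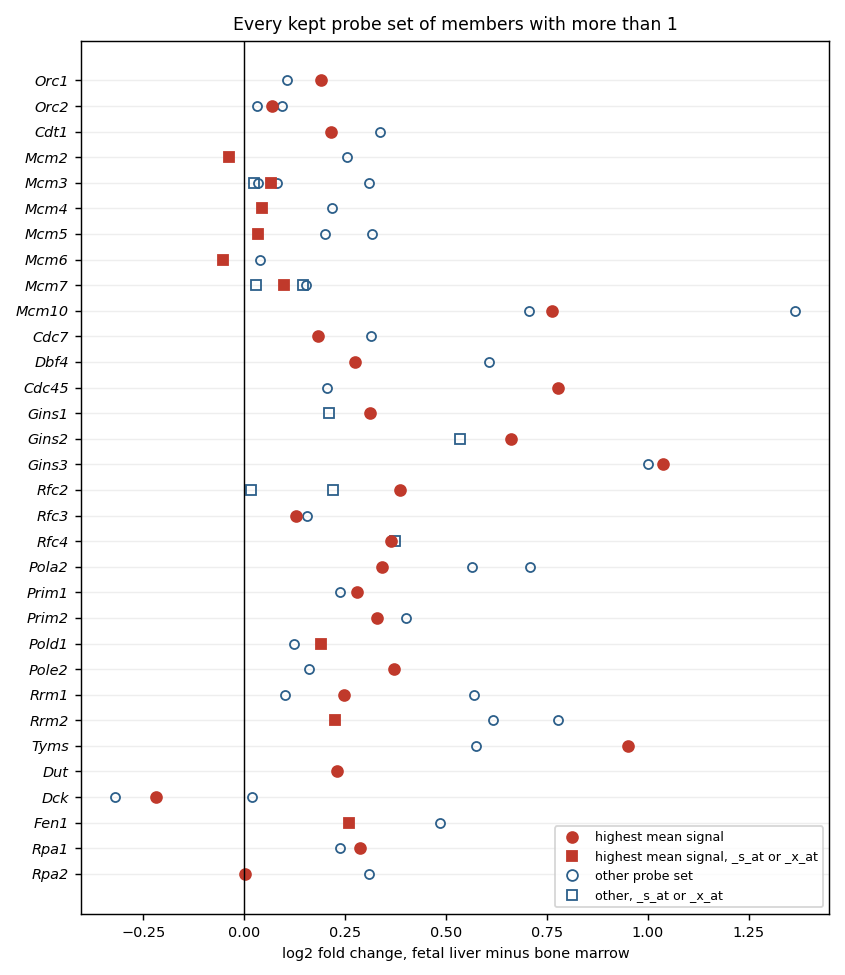
Log2 fold change (x axis) of every kept probe set for the 32 genes with more than 1, with the chosen probe set filled in red and the others open in blue; squares carry an _s_at or _x_at suffix. The chosen probe sets of the MCM2-7 genes are all squares near 0, and Rrm2 lies at 0.22 on its chosen probe set and at 0.62 and 0.78 on the others.

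The fetal liver arrays were close to each other over these genes, and the bone marrow arrays were less so. The median gene lay within 0.05 log2 units of the other fetal liver arrays on each fetal liver array. Bone marrow replicate 1 lay 0.14 below the other bone marrow arrays and replicate 2 lay 0.10 above them, compared with -0.03 and 0.04 over all genes tested. Bone marrow replicate 1 was the lowest array of its tissue for 27 of the 41 genes and replicate 2 the highest for 26. Without bone marrow replicate 1 the count of genes called higher was 11, without bone marrow replicate 3 or fetal liver replicate 3 it was 11 as well, and 10 genes were called in all 6 fits that left out 1 array. Those were Orc6, Gmnn, Mcm10, Cdc45, Gins1, Gins2, Gins3, Rfc4, Tyms and Tk1.

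Other settings ended further calls, mostly of genes with small differences. Without the intensity trend in the variance model, Dbf4 (adjusted p = 0.0533), Rfc2 (0.102), Pola2 (0.0679), Prim2 (0.0618), Rrm1 (0.0898), Rrm2 (0.115), Dut (0.1004) and Rpa1 (0.0893) were not called. With ordinary t statistics the losses beside Mcm10 were Rfc2 (0.163), Pola2 (0.0900), Prim2 (0.0715), Rrm1 (0.0541), Rrm2 (0.0641) and Rpa1 (0.0931). Averaged probe sets also ended the calls of Rfc2 (0.0623), Rrm1 (0.119) and Dut (0.0648). With no filter on low signal Rfc2 (0.0528), Pola2 (0.0611), Rrm1 (0.0543), Rrm2 (0.0662) and Dut (0.0538) were not called, and the filter at the 60th percentile ended the call of Pola2 (0.0534). In the other direction, median centring added calls for Cdc6, Cdt1, Cdc7, Rfc3, Pola1, Prim1, Pole, Fen1 and Lig1, with adjusted p of 0.0186 to 0.0410.

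Further genes of the same processes were read from a wider list. Of 63 other replication and nucleotide synthesis genes tested, 25 were higher in fetal liver and 2 lower, with a median of 0.22. Over all genes tested 17.8% were called higher and 18.3% lower, with a median of 0.04. Nasp, a histone chaperone, had a mean signal of 1654 ± 85.6 in fetal liver and 1119 ± 58.4 in bone marrow (SD, n = 3 each; log2 fold change 0.56 ± 0.10 by limma, adjusted p = 0.00187). Chtf18, of an alternative clamp loader, averaged 1036 ± 72.3 in fetal liver and 637 ± 75.4 in bone marrow (0.71 ± 0.12, adjusted p = 0.00222). Both genes had separate groups. Mthfd2, a mitochondrial enzyme of folate metabolism, averaged 2172 ± 39.5 in fetal liver and 1558 ± 119 in bone marrow (0.48 ± 0.09, adjusted p = 0.00333), and Umps, the last enzyme of UMP synthesis, 1825 ± 262 in fetal liver and 1212 ± 22.3 in bone marrow (0.58 ± 0.12, adjusted p = 0.00430). The 2 genes called lower were Mcm9, an MCM relative known for a part in DNA repair, at -0.39 ± 0.12 (adjusted p = 0.0305), and Samhd1, which degrades deoxynucleotides and is also an antiviral factor, at -0.39 ± 0.12 (0.0330).

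Mitosis genes, the other large group of cycle-dependent transcripts, gave 26 of 32 called higher and 0 lower by limma. Their median log2 fold change was 0.49. At an unadjusted limma p under 0.05 the counts were 27 and 0, against 2771 higher and 2580 lower of all 11645 genes tested. Calls over all genes tested were 17.8% higher and 18.3% lower. For the 41 replication and nucleotide genes the corresponding figures were 20 called higher, 0 lower and 0.25. The difference between the 2 lists was not tested. Within bone marrow the mitosis genes also had their lowest median on replicate 1, 0.13 below the other arrays.

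**Figure D5:**
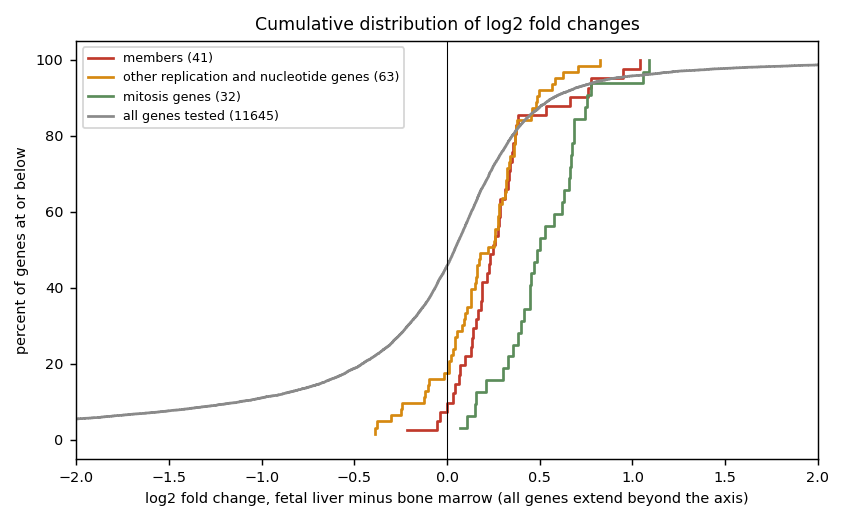
Cumulative share of genes (y axis, percent) by log2 fold change (x axis, fetal liver minus bone marrow) for the 41 genes described here (red), 63 other replication and nucleotide genes (orange), 32 mitosis genes (green) and all 11645 genes tested (grey). The first 2 curves run together with medians of 0.25 and 0.22, the mitosis curve lies to their right with a median of 0.49, and all genes are centred at 0.04 with long tails.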

How the data were processed

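Biotin-labelled total RNA of sorted progenitors was hybridised to Affymetrix mouse arrays. The authors deposited intensity on a linear scale for each probe set of each array. MAS5 is the tool named, without a version, per the submitters' processing notes. Each array's mean, after trimming 2% at either end, was 500. The number of arrays limits the precision, and 3 against 3 cannot reach a permutation p below 0.1, so none is used. No 2 arrays were identical, and 0 columns were left unmapped.

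Of 45101 probe sets, 64 were controls, 34945 had 1 symbol, 932 several and 9160 none listed; 34741 of those with 1 symbol matched a RefSeq gene table (GRCm38.p6) by Entrez identifier and 0 symbols were updated. Signals were log2-transformed with no offset, and probe sets above the 40th percentile of mean log2 signal (a signal of 22.9) were kept, which left 11645 genes. limma 3.58.1 (R 4.3.3) fitted tissue alone with an intensity-trended prior and Benjamini-Hochberg adjustment over all genes. Tables and figures used Python 3.11.15 with pandas 2.3.3, numpy 2.4.6 and matplotlib 3.10.9.

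On simulated data of 11645 genes, the fit recovered 73 of 100 genes set to a 2-fold change and 89 of 100 set to 4-fold. It called 6 unchanged genes. Noise was drawn independently for each gene and only these genes were changed, whereas 36.1% of genes were called in the data. No change under 2-fold was simulated, so the check does not cover the smaller differences reported here. Alternatives changed the filter, scaling, offset, choice of probe set, variance model, replicate block and the arrays included. Leaving out suffixed probe sets was chosen after seeing the data.

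The genes and lists were chosen with earlier results of these data known. All members are named; signals per array are given for called genes and the brightest of each step, with Dck added afterwards. Of the other pathway genes up to 4 called in each direction, by smallest adjusted p, are named (only 2 were called lower), and of each marker list the brightest. Of 231 list names 217 were found; the rest were not analysed here.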

Additional observations from a re-analysis of the deposited data

How the results depend on the processing

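Of the 20 genes called, 7 (Orc6, Gmnn, Gins2, Gins3, Rfc4, Tyms and Tk1) were called under all 17 alternatives, and 0 of the 20 changed sign under any of them. The count called higher, 20, was 29 under median centring, 22 with array weights, 12 without the variance trend and 13 with ordinary t statistics, and 11 to 18 when 1 array was left out. The count called lower, 0, was 1 (Dck) with array weights, and 0 to 1 when 1 array was left out. The median log2 fold change, 0.25, was 0.17 under quantile normalization and 0.41 under median centring. With the replicate block, as an alternative, 20 genes were called, 18 of them shared, with Pola2 and Rrm2 lost. Deviations of same-numbered arrays correlated at -0.08, 0.07 and -0.11, and those of the other pairs at -0.052 to 0.145. Such correlations cannot show whether arrays of the 2 tissues were handled together, which was not tested.

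Of the other pathway genes, 25 were called higher and 2 lower. Higher calls were 37 under median centring, 32 with array weights, 16 without the variance trend, 13 with ordinary t statistics and 11 to 24 when 1 array was left out. Lower calls were 4 under quantile normalization, 0 under median centring, with the mean of probe sets, without the trend and with ordinary t statistics, 5 with array weights, and 0 to 3 when 1 array was left out. All genes called were 4208, against 5335 under median centring, 6005 with array weights, 2790 with ordinary t statistics and 2865 to 4436 when 1 array was left out.

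Among the 41 genes, signs turned only for those not called. Under quantile normalization Mcm3 (-0.0222), Mcm4 (-0.0405), Mcm5 (-0.0187) and Rpa2 (-0.0625) were negative, and with array weights Mcm4 (-0.0578) and Rpa2 (-0.0336). Mcm2 was positive under median centring (0.121), with the mean of probe sets (0.109) and without suffixed probe sets (0.256), and Mcm6 under the first (0.107) and the last (0.0392). Leaving out 1 array gave -0.0426 to 0.188 for Orc2, -0.141 to 0.0734 for Mcm2, -0.0292 to 0.157 for Mcm3, -0.0392 to 0.0985 for Mcm4, -0.0586 to 0.201 for Mcm5 and -0.0925 to 0.0811 for Rpa2. The causes were not tested.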
